A study of Mus musculus with 7 samples.

Results

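The genes described here are 4 transcription factor genes of the positive limb of the circadian clock, *Arntl* (encoding BMAL1), *Clock*, *Npas2* and *Rora* (encoding RORα). They were taken by symbol from a raw count table of 55401 genes, and all 4 were found and passed the filter on low counts, which kept 17465 genes. The list was chosen by the measured fold changes between the study's 2 groups, BLM+HBO against BLM, which were already known. Their values in that comparison are therefore a description without P values, and a count of how many of them changed supports nothing.

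The samples were right lung lobes of male C57BL/6 mice, aged 6 to 8 weeks and weighing 20 to 25 g, and RNA-seq gave 1 library per mouse. Bleomycin, an antibiotic that damages DNA and is used in mice as a model of pulmonary fibrosis, was given to every mouse into the trachea at 2.0 U/kg on day 0, and tissue was taken on day 21. The 4 BLM mice had bleomycin alone; the sample records place them in the chamber without pressurised oxygen, whereas the Supplementary methods call them untreated, and which applied was not settled. The 3 BLM+HBO mice also breathed hyperbaric oxygen (HBO), that is oxygen at raised pressure, at 2.5 ATA for 90 min per day on 14 days from day 7 to day 20. No mouse without bleomycin was analysed here, so the levels below are those of injured lungs. The mice were housed under 12 h of light and 12 h of dark, and the time of day at which the tissue was taken is not given in the sources used here.

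The molecular clock is a feedback loop that runs in nearly every cell and cycles daily. BMAL1 pairs with CLOCK, or with its close relative NPAS2, and the pair binds E-box sequences and switches on the genes of its own repressors, the PER and CRY proteins, and of the nuclear receptors REV-ERBα and REV-ERBβ (encoded by *Nr1d1* and *Nr1d2*). RORα and the REV-ERB proteins compete for the same elements (ROREs), where ROR activates and REV-ERB represses, and *Arntl* and *Npas2* are known targets of this competition. As a result, *Arntl* and *Npas2* peak at about the opposite time of day to *Nr1d1*, *Dbp* and *Per3* in most tissues, including the lung, whereas *Clock* and *Rora* cycle weakly or not at all in many of them.

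The regulatory letters of the members were read from the RefSeq promoter table (GRCm38.p6; the count table uses GRCm38), where each window runs from 250 bases before to 50 bases after an annotated start. All 4 members matched, with 7 windows. Both strands were searched for the E-box CACGTG, the RORE as TAGGTCA or TGGGTCA, and the D-box TTANGTAA. These letters occur in 7.15%, 6.45% and 2.32% of all 32851 windows in the table, respectively. Among the members' windows there was 1 match, a RORE on the plus strand at bases 281 to 287 of the second *Arntl* window, which is 30 bases downstream of that start. The *Arntl* window that holds it and the single *Npas2* window are shown because the transcripts of these genes varied together over the mice. Capitals mark the RORE letters, and the sequences run from 5′ to 3′ on the plus strand, at chr7:113207261-113207560 for *Arntl* and chr1:39194022-39194321 for *Npas2*.

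Arntl: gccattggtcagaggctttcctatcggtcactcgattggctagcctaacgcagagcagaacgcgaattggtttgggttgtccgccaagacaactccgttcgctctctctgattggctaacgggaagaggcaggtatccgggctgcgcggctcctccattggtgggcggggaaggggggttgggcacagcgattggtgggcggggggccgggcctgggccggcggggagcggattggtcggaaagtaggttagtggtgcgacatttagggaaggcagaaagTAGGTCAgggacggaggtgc

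Npas2: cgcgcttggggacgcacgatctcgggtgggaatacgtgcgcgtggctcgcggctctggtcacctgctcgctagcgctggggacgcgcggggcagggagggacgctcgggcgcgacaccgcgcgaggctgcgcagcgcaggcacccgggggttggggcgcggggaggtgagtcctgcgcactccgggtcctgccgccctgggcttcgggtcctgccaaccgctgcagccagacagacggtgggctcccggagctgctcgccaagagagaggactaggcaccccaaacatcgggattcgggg

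The *Npas2* window held none of the searched letters, and neither did the windows of *Clock* and *Rora*. A match describes letters only, and the lack of one says only that these letters are not in this window.

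The libraries held 18157161 to 26365969 counted reads. No 2 libraries of a group were alike within sampling noise, so each mouse counted as 1 replicate. Levels are given as CPM, the usual unit of reads counted for a gene relative to all reads counted in its library, after scaling by the trimmed mean of M values (TMM), and a fold change is always BLM+HBO over BLM. On the first principal component of all genes, which took 37.3% of the variance, BLM+HBO 2 lay nearest to the BLM mice (-0.996, against -47.6 to -6.08 in BLM and 54.8 and 37.8 in the other BLM+HBO mice). Surfactant and other markers of type II alveolar cells summed to between 8745 and 27489 CPM in every mouse, and no list of lung cell markers was at 0.

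*Arntl* encodes the partner that CLOCK and NPAS2 share. The gene (ENSMUSG00000055116.8) lies on the plus strand of chromosome 7 from 113207465 to 113314126, with 7523 exonic bases. Its level was 15.4, 22.3, 19.3 and 31.5 CPM in BLM 1 to 4, and 6.49, 10.8 and 16.7 CPM in BLM+HBO 1 to 3. The lowest values were those of BLM+HBO 1 and 2 and the highest was that of BLM 4, and the groups overlapped in that BLM 1 lay below BLM+HBO 3. The group means were 22.1 ± 6.87 CPM for BLM (SD, n = 4) and 11.3 ± 5.14 CPM for BLM+HBO (SD, n = 3), and the fitted log2 fold change was -0.96 ± 0.33 (SE). Leaving out single mice moved this value between -1.35 (without BLM+HBO 3) and -0.68 (without BLM+HBO 1).

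*Npas2* encodes a paralogue of CLOCK that can take its place beside BMAL1. The gene (ENSMUSG00000026077.15) lies on the plus strand of chromosome 1 from 39193731 to 39363236, with 4791 exonic bases. Its level was 4.96, 8.34, 10.05 and 14.9 CPM in BLM 1 to 4 and 2.93, 6.08 and 9.56 CPM in BLM+HBO 1 to 3. As for *Arntl*, BLM 4 was the highest mouse and BLM+HBO 1 the lowest, but here the groups overlapped more widely, since BLM+HBO 3 lay above BLM 1 and BLM 2. The group means were 9.56 ± 4.14 CPM for BLM (SD, n = 4) and 6.19 ± 3.32 CPM for BLM+HBO (SD, n = 3). The log2 fold change was -0.62 ± 0.43 (SE), between -1.09 without BLM+HBO 3 and -0.29 without BLM+HBO 1. The counts behind these values were the smallest of the members, 55 to 283 reads per mouse.

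*Clock* encodes the usual partner of BMAL1, a transcription factor of the bHLH-PAS family. The gene (ENSMUSG00000029238.11) lies on the minus strand of chromosome 5 from 76209868 to 76304792, with 13727 exonic bases. Its level was 104.6, 85.3, 63.4 and 64.1 CPM in BLM 1 to 4, and 65.7, 65.6 and 66.3 CPM in BLM+HBO 1 to 3. The BLM+HBO mice were nearly equal and lay within the range of BLM, where BLM 1 and BLM 2 stood above all other mice. The log2 fold change was -0.27 ± 0.17 (SE), and it was -0.11 without BLM 1.

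*Rora* encodes the nuclear receptor that activates through ROREs, and it is also needed for type 2 innate lymphoid cells. The gene (ENSMUSG00000032238.17) lies on the plus strand of chromosome 9 from 68653786 to 69388246, with 13071 exonic bases. Its level was 53.4, 47.8, 38.0 and 31.3 CPM in BLM 1 to 4, and 45.5, 39.1 and 34.7 CPM in BLM+HBO 1 to 3, so that the BLM+HBO mice lay inside the range of BLM. The log2 fold change was -0.10 ± 0.18 (SE) and turned to 0.03 without BLM 1. The list of type 2 innate lymphoid markers summed to 30.2 to 53.1 CPM in BLM and 42.4 to 62.1 CPM in BLM+HBO. Of its 7 genes 5 could be tested and 1 was called higher, and *Il5* and *Il13*, which encode the defining cytokines of these cells, had at most 0.375 and 0.335 CPM. The part of these cells in the level of *Rora* was not tested.

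**Figure D1:**
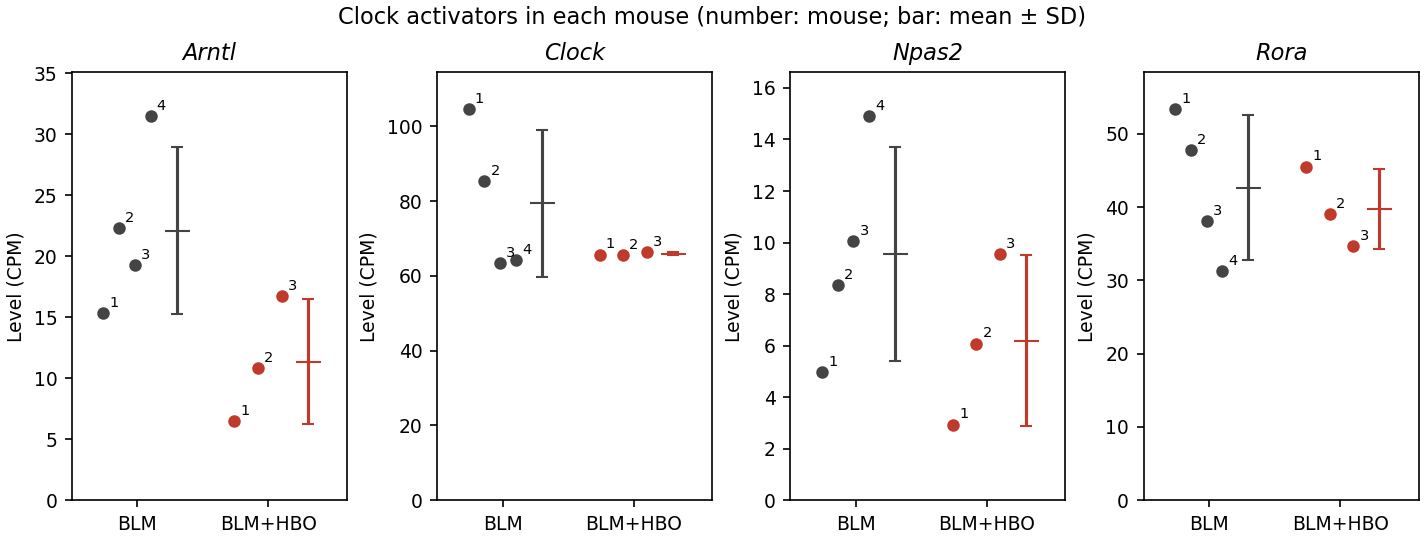
Level of each member in CPM (vertical axes from 0) in the 4 BLM mice and the 3 BLM+HBO mice. Points are mice, labelled with their number, and bars are the mean ± SD of the group. *Arntl* and *Npas2* are highest in BLM 4 and lowest in BLM+HBO 1, whereas the BLM+HBO mice lie at 65.6 to 66.3 CPM for *Clock*.

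By the study's thresholds (fold change above 1.5 with an unadjusted P below 0.05, here from edgeR), 1 of the 4 members, *Arntl*, passed, with a lower level in BLM+HBO. By the same thresholds 6.29% of all tested genes passed, 3.40% higher and 2.89% lower. *Npas2* passed the fold but not the P threshold, and *Clock* and *Rora* passed neither. Although all 4 fitted values were below 0, this was also so for 48.8% of the tested genes. None of the members had groups that did not overlap, against 8.77% of all genes. With Benjamini-Hochberg adjustment, edgeR called 0 genes of the whole table (lowest adjusted P = 0.423) and limma-trend called 0. In edgeR 1861 genes had an unadjusted P below 0.05. DESeq2 called 155 genes at an adjusted P below 0.05, which is 0.918% of the 16886 genes to which it gave one. By the study's thresholds DESeq2 called 1396 of 32868 genes (4.25%), without the filter on low counts. Its share is thus over more genes than that of edgeR, which called 1098 of 17465. Fewer cells of a type and less RNA per cell cannot be told apart in bulk lung.

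Several marker lists, which were chosen with earlier results of these data known, differed between the same groups. Heart muscle markers summed to 63.2 to 163.4 CPM in BLM and 147.5 to 648.4 CPM in BLM+HBO, with 7 of 8 genes called higher. Fibroblast markers summed to 5888 to 9714 CPM in BLM and 1887 to 6331 CPM in BLM+HBO, with 5 of 6 genes called lower. B cell markers were called higher in 4 of 4 cases (45.6 to 86.9 against 82.7 to 179.7 CPM), and macrophage markers were called lower in 3 of 5 (596.7 to 821.0 against 400.7 to 576.1 CPM). None of the listed heart, fibroblast, B cell or macrophage markers was at 0 in every mouse. T cell and endothelial markers had 0 called genes of 6 and 5. The part of these cells in the levels of the members was not tested.

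The members fell into a pair that varied widely and a pair that varied little. Between the lowest and the highest of the 7 mice, *Arntl* ranged 4.85-fold and *Npas2* 5.09-fold, whereas *Clock* ranged 1.65-fold and *Rora* 1.71-fold. Much of this spread was also present inside the groups. Within BLM, where no mouse had HBO, *Npas2* ranged 3.01-fold and *Arntl* 2.05-fold, and within BLM+HBO they ranged 3.27-fold and 2.58-fold. Part of this spread ran in the order of the mouse numbers. *Npas2* rose and *Rora* fell with the number in both groups. *Arntl* rose with it in BLM+HBO, and in BLM except that BLM 3 lay below BLM 2. What this order stands for was not tested, and with 4 BLM and 3 BLM+HBO mice it limits the comparison of the groups.

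How far 2 genes moved together was described by the root mean square, over the 7 mice, of the difference between their log2 CPM after each gene's mean was subtracted. The value is 0 for genes with parallel profiles. It also shrinks for genes that vary little, so each gene's own spread about its mean is the value it would have against a flat gene: 0.678 for *Arntl*, 0.703 for *Npas2*, 0.256 for *Clock* and 0.251 for *Rora*. *Arntl* and *Npas2* were 0.281 apart and *Clock* and *Rora* 0.159 apart, each less than the pair's own spreads. The other pairs were at 0.703 to 0.900, above the own spread of both genes. After centring within each group, which removes the difference between the groups, these values were 0.139 for *Clock* and *Rora*, 0.225 for *Arntl* and *Npas2*, and 0.589 to 0.852 for the rest. Within groups the own spreads were 0.459 for *Arntl*, 0.621 for *Npas2*, 0.228 for *Clock* and 0.248 for *Rora*. These are values over 7 libraries that share their scaling, and no test was made of them.

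*Clock* and *Rora* both have long transcripts, and the level of long genes differed between libraries. The median centred log2 level of the 1433 tested genes with at least 10 kb of exon was 0.14 in BLM 1 and -0.13 in BLM 3, and between -0.02 and 0.03 in the other mice. *Clock* stood at 0.53 in BLM 1 and -0.19 in BLM 3, and *Rora* at 0.39 and -0.10. The part of transcript length in the levels of both genes was not tested.

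The order of levels between genes was not used to choose the members, so it could be tested. Levels were expressed as CPM per kb of exon, with the relatives *Arntl2* (BMAL2) and *Rorb* added. *Clock* stood highest at 5.36 ± 1.14 CPM per kb (SD, n = 7), before *Rora* (3.17 ± 0.60), *Arntl* (2.33 ± 1.08), *Npas2* (1.69 ± 0.82) and *Arntl2* (0.902 ± 0.200). *Rorb*, whose main sites of expression are the brain and retina, was near absence at 0.0310 ± 0.0181 CPM per kb, and it was not among the genes tested between groups.

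Neighbours in this order were compared within each mouse by a two-sided exact permutation test that flips signs over the 7 mice, for which the smallest possible P is 0.0156, with Benjamini-Hochberg adjustment over the 5 pairs. *Clock* lay above *Rora* in 7 of 7 mice, by 0.75 ± 0.17 on the log2 scale (SD; exact permutation P = 0.0156, adjusted P = 0.0195). *Arntl* lay above *Npas2* in 7 of 7 mice, by 0.46 ± 0.30, with the same exact permutation P values. *Npas2* lay above *Arntl2* by 0.77 ± 0.70 and *Arntl2* above *Rorb* by 4.63 ± 0.90, again in 7 of 7 mice with these P values. By contrast, *Rora* and *Arntl* (0.57 ± 0.88) did not differ beyond their spread (higher in 6 of 7 mice, exact permutation adjusted P = 0.141), although without BLM 4 they did (0.79, exact permutation adjusted P = 0.0312). With the longest transcript in place of all exonic bases, *Rora* and *Arntl* changed order (-0.083) and the difference of *Npas2* and *Arntl2* was 0.028 (exact permutation adjusted P = 0.891 for both). The test takes the length of each gene as given. Its P values measure the spread between mice and do not cover an error in that length, which would shift all mice alike.

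**Figure D2:**
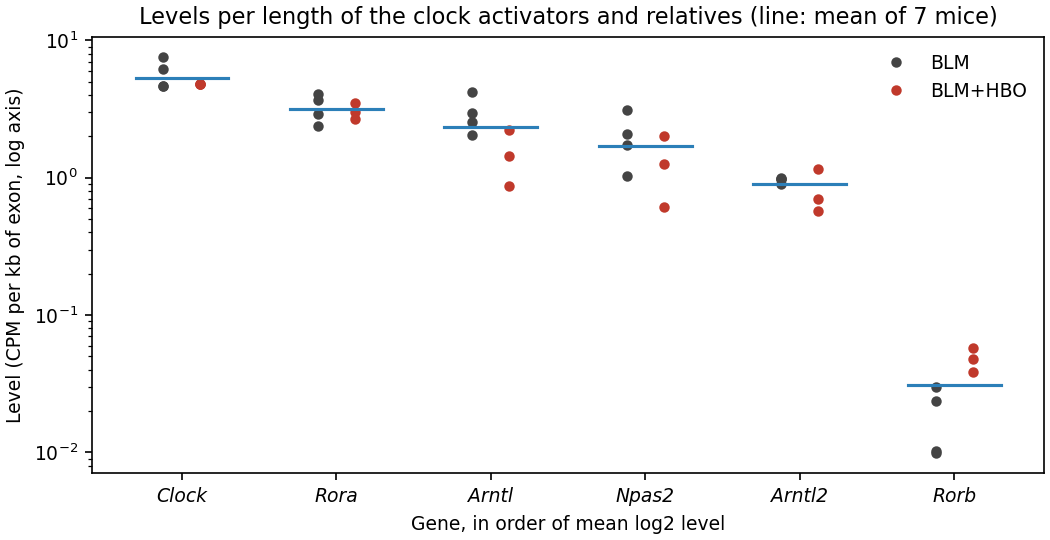
Level per length (CPM per kb of exon, log axis) of the 4 members and of their relatives *Arntl2* and *Rorb* in each mouse, in order of the mean log2 level. Points are mice, coloured by group, and lines are the mean of 7 mice, from 5.36 CPM per kb for *Clock* to 0.0310 for *Rorb*.

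The balance between the BMAL1 partners was also read within each mouse. Per length, the ratio of *Npas2* to *Clock* was 0.136, 0.280, 0.454 and 0.666 in BLM 1 to 4 and 0.128, 0.266 and 0.413 in BLM+HBO 1 to 3. *Clock* exceeded *Npas2* in every mouse, by the least in BLM 4. The groups overlapped, although BLM 3 and BLM 4 lay above every BLM+HBO mouse. In both groups the ratio of *Npas2* to *Clock* rose with the mouse number. BLM 1 to 3 lay only slightly above the BLM+HBO mice of the same number, and BLM 4 has no BLM+HBO mouse of its number. The ratio of *Arntl* to *Clock* was 0.268, 0.477, 0.555 and 0.896 in BLM and 0.180, 0.301 and 0.460 in BLM+HBO. By exonic length the transcript of the shared partner was thus below that of *Clock* in all mice, whereas with the longest transcript as length, a setting chosen after seeing the data, it was above that of *Clock* in BLM 4 (a ratio of 1.20) and below it in the other mice (0.241 to 0.742). The ratio of *Npas2* to *Arntl* varied less, from 0.507 to 0.898.

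The other genes of the clock were taken from a list of 42, of which 41 could be tested. The list was written with earlier results of these data known. Counts and P values over it are therefore a description and no independent support. By the study's thresholds in edgeR 7 of the 41 genes were higher in BLM+HBO (3.40% of all genes were) and 1 was lower (2.89%). In edgeR 11 had an unadjusted P below 0.05 (10.7% of all genes did). None passed the adjusted threshold in edgeR or limma-trend. In DESeq2 *Nr1d1*, *Tef* and *Per3* passed it (adjusted P = 0.00323, 0.0226 and 0.0166). The median log2 fold change of the 41 genes was 0.08, against 0.01 over all genes. In 6 genes the BLM+HBO mice all lay above the BLM mice (4.05% of all genes) and in 2, *Nfil3* and *Fbxl21*, they all lay below (4.72%), although *Fbxl21* had at most 32 reads in a mouse.

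The called genes were in 2 roles. In the repressor arm, which holds the targets of BMAL1 dimers that feed back on them, 4 of 10 genes were called higher and 0 lower, with a median log2 fold change of 0.53. *Nr1d1*, encoding REV-ERBα, had 57.9, 60.6, 33.7 and 27.0 CPM in BLM 1 to 4 and 109.2, 91.8 and 117.8 CPM in BLM+HBO 1 to 3. The groups did not overlap, and the log2 fold change was 1.25 ± 0.26 (SE). *Nr1d2*, encoding REV-ERBβ, had 96.1, 84.3, 56.4 and 31.6 CPM against 190.9, 122.2 and 78.6 CPM. Here BLM+HBO 3 lay below BLM 1 and BLM 2, and the log2 fold change of 0.96 ± 0.37 (SE) fell short of the thresholds without BLM+HBO 1 (0.58) and without BLM 3 (0.89).

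*Per3*, a period gene, had 37.2, 38.2, 29.4 and 22.0 CPM in BLM and 96.0, 53.4 and 49.3 CPM in BLM+HBO, with no overlap and a log2 fold change of 1.06 ± 0.26 (SE). *Ciart*, encoding the repressor CHRONO, was also called higher (1.05 ± 0.30). Of the 6 genes that were not called, *Per1* stood at 0.49 ± 0.26, *Per2* at 0.57 ± 0.21, *Cry2* at 0.42 ± 0.15 and *Cry1* at -0.32 ± 0.18, *Per2* and *Cry2* with an unadjusted P below 0.05 in edgeR but a fold change under 1.5. *Bhlhe40* (-0.22 ± 0.23) and *Bhlhe41* (0.080 ± 0.184), which encode the repressors DEC1 and DEC2, changed sign without BLM+HBO 3 (0.017) and without BLM+HBO 1 (-0.089), respectively.

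In the PAR bZIP and D-box group, 3 of 4 genes were called higher and 1 lower. *Dbp*, a direct target of BMAL1 and CLOCK, had 25.7, 24.3, 15.5 and 5.58 CPM in BLM 1 to 4 and 116.6, 50.1 and 39.2 CPM in BLM+HBO 1 to 3. All BLM+HBO mice lay above all BLM mice, and the log2 fold change was 1.95 ± 0.49 (SE), the largest on the list. *Tef* (0.83 ± 0.20) and *Hlf* (1.12 ± 0.43), which encode relatives of DBP, were called higher too. Without BLM+HBO 1 they stood at 0.58 and 0.47 and were not called, and *Hlf* was not called without BLM 3 or BLM 4 either. *Nfil3*, which encodes the D-box repressor E4BP4 and is itself a RORE target, had 21.2, 17.5, 24.8 and 34.6 CPM in BLM and 9.42, 15.4 and 15.4 CPM in BLM+HBO. It was the only other clock gene called lower, with no overlap and a log2 fold change of -0.87 ± 0.26 (SE).

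The remaining roles held no called gene. This was so for the relative *Arntl2* (-0.25 ± 0.27), for 10 kinases and ubiquitin ligases (median -0.03), for 11 cofactors (median 0.04) and for 5 output genes (median 0.16). Among the outputs *Wee1*, a cell cycle kinase with E-boxes in its promoter, stood at 0.49 ± 0.17 and its groups did not overlap, but its fold change was below 1.5. The lack of a call does not show that these genes were equal in both groups.

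**Figure D3:**
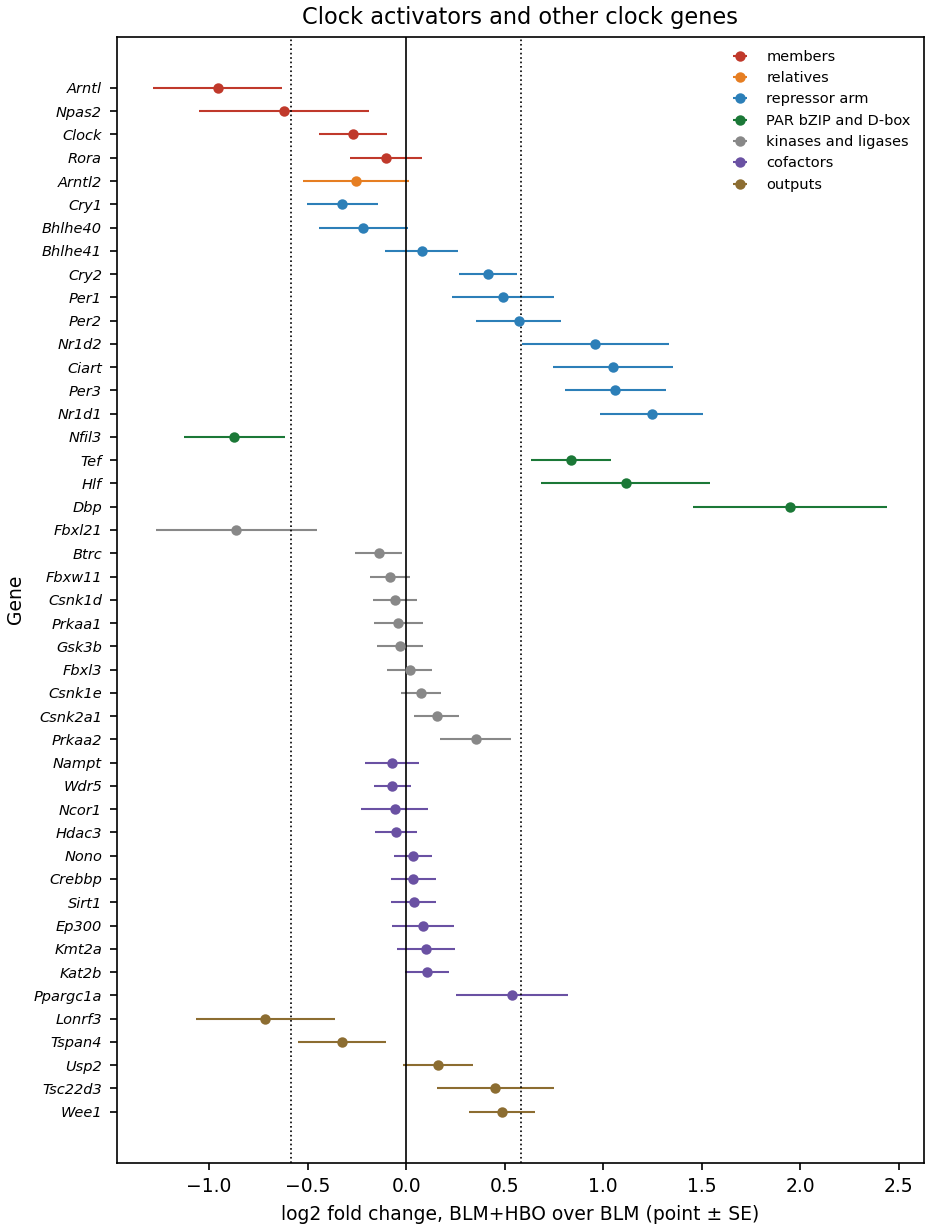
Log2 fold change (BLM+HBO over BLM, point ± SE from the edgeR fit) of the 4 members and the 41 other clock genes tested, coloured by role. Dotted lines mark a fold change of 1.5 in either direction. *Arntl* (-0.96) and *Nfil3* (-0.87) lie on the left, and *Dbp* (1.95) and *Nr1d1* (1.25) lie farthest to the right.

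*Arntl* and *Npas2* were highest in BLM 4 and lowest in BLM+HBO 1, whereas *Clock* was highest in BLM 1 and lowest in BLM 3, and *Rora* was highest in BLM 1 and lowest in BLM 4. Of the 14 genes of the repressor arm and the PAR bZIP group, 8 were highest in BLM+HBO 1 and 7 were lowest in BLM 4, with 6 in both counts. *Nfil3* was the only one highest in BLM 4 and the only one lowest in BLM+HBO 1. The ratio of *Dbp* to *Arntl* per length joins the opposite ends of the loop, and it was 4.20, 2.74, 2.03 and 0.446 in BLM 1 to 4 and 45.1, 11.6 and 5.89 in BLM+HBO 1 to 3. It was below 1 only in BLM 4. The ratio of *Nr1d1* to *Rora*, which encode rivals for the RORE, was 4.60, 5.39, 3.76 and 3.66 in BLM and 10.2, 9.99 and 14.4 in BLM+HBO. Both ratios join genes chosen with this comparison known, and they are given without a test.

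**Figure D4:**
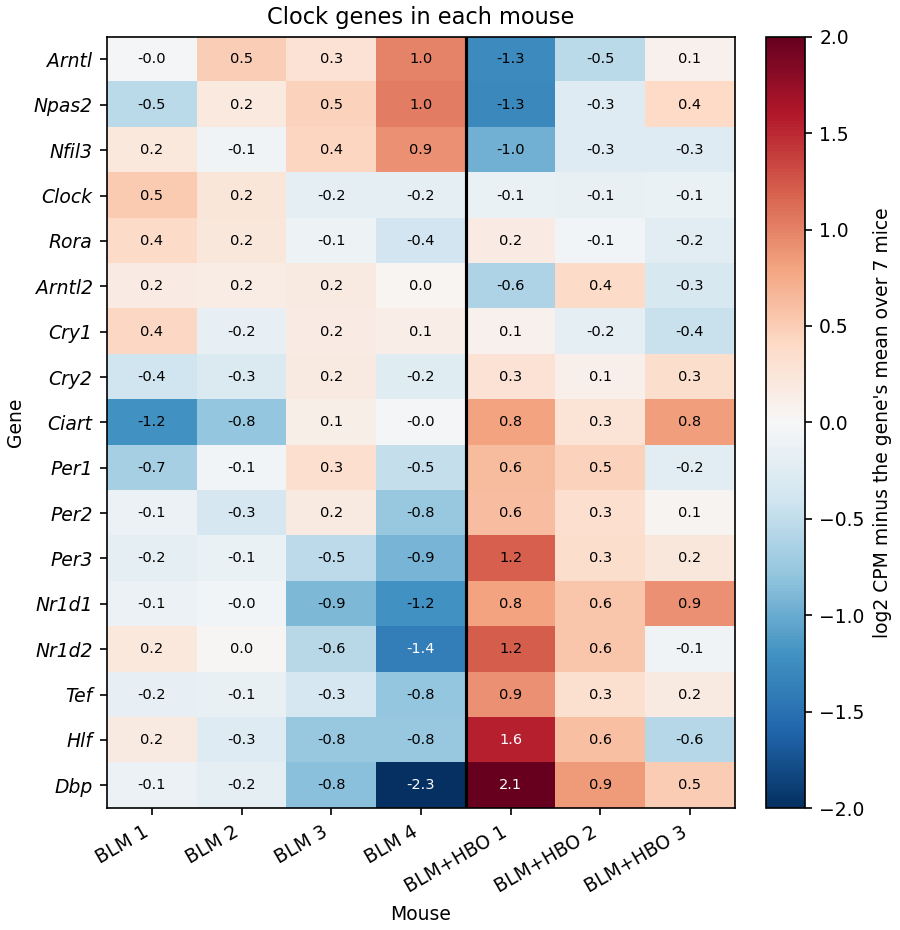
Log2 CPM minus the gene's mean over 7 mice (colour and number in each cell) for the members and named clock genes (rows) in each mouse (columns). The colour scale ends at ±2, which *Dbp* exceeds in BLM 4 and BLM+HBO 1. In BLM 4 and BLM+HBO 1, *Arntl*, *Npas2* and *Nfil3* lie on the other side of their means from *Per3*, *Nr1d2*, *Tef*, *Hlf* and *Dbp*. In BLM 1 and BLM+HBO 3, *Arntl* and *Npas2* have the same sign as *Per3*, *Tef* and *Dbp*. There *Arntl* lies near its mean, at -0.04 and 0.08.

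The genes whose profile over the mice was most like that of *Arntl* were sought among 15805 genes with a mean of at least 1 CPM, by the same root mean square. The 10 nearest were *Rasl11a* (0.230), *Gdf3* (0.238), *Itga7* (0.238), *Aunip* (0.246), *Plk1* (0.267), *2510016D11Rik* (0.271), *Ccr10* (0.274), *Nuf2* (0.278), *Npas2* (0.281) and *Cks1b* (0.311). *Npas2* was thus in place 9, and *Nfil3* followed in place 11 (0.317). Near the floor of 1 CPM lay *Gdf3*, *Aunip*, *2510016D11Rik* and *Ccr10*, with mean levels of 1.15, 1.23, 1.10 and 1.48 CPM.

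Genes that mirrored *Arntl* were sought by the root mean square of the sum in place of the difference. *Cd226* (0.223), which encodes a receptor of T and NK cells, was nearest to its mirror image. *Per3* (0.231), *Tef* (0.257) and *Nr1d2* (0.276) were in places 2, 4 and 5, and *Hlf* (0.312) and *Per2* (0.340) in places 7 and 16. Other clock genes that were higher in BLM+HBO were farther down this list, with *Nr1d1* in place 428, *Dbp* in 5447 and *Ciart* in 9581. So was *Per1*, which was not called, in place 362. The distance also grows for a gene that swings more widely than *Arntl*. A far place in a mirror list therefore does not by itself mean a profile of another shape. About its mean, *Dbp* stood at -2.29 in BLM 4 and 2.07 in BLM+HBO 1, where *Arntl* stood at 0.99 and -1.27.

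Since the whole profile holds the difference between the groups, the places were also taken with values centred within each group. The 10 nearest genes then stood in places 1 (*Itga7*) to 134 (*Ccr10*), with *Npas2* in place 39, and in the mirror list *Per3* stood in place 33, *Tef* in 40, *Per2* in 101, *Nr1d2* in 118 and *Rora* in 225, whereas *Dbp* stood in place 5746, *Nr1d1* in 7321 and *Ciart* in 14561. *Clock* was in place 11966 of the nearest list. In the mirror list it was in place 3337, at a distance of 0.422, slightly below the 0.459 of a flat gene. Within groups, *Itga7* was the nearest gene and *Clec4a1* the nearest mirror, and neither is a clock gene.

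The reads were counted without strand. *Arntl* shares 33 exonic bases (0.439%) with the antisense gene *Gm45355*, and *Rora* 82 (0.627%) with the antisense gene *Gm15511*. Reads from these stretches cannot be assigned to a strand. *Clock* and *Npas2* share no exonic base with the genes that overlap them.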

How the data were processed

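Per the study's methods, the authors prepared libraries with NEBNext Ultra, sequenced them as paired ends of 150 bases on a NovaSeq, used Trim Galore for trimming and HISAT2 (2.2.0 in the submitters' processing notes) for alignment to GRCm38, and made the deposited raw counts per gene with featureCounts (2.2.0 in those notes, whereas the Supplementary methods give another version) at its default settings. Strand is then ignored and reads with more than 1 alignment are dropped, which can lower counts of genes with near-identical copies. The counts are not normalized, and each column belongs to 1 mouse by its label. GENCODE vM21 gave symbols for 55141 of 55401 genes.

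Low counts were removed by filterByExpr (its minimum count was 10 and its minimum total 15) and libraries were scaled by TMM (factors 0.964 to 1.036). The test was edgeR 4.0.16's quasi-likelihood test under R 4.3.3 with group as the only factor (common biological coefficient of variation 0.222) and the study's thresholds, fold change above 1.5 and P below 0.05 before adjustment. The SE is the log2 fold change divided by the square root of F. DESeq2 1.42.0 and limma-trend (limma 3.58.1) were alternatives, as were RLE and upper-quartile factors, no filter, 1 CPM in 3 mice, a replicate block and leaving out each mouse in turn. Profiles used log2 CPM with a prior count of 2 (0.5 as an alternative). Levels between genes used the exonic length of the count table, with the longest transcript as an alternative. The fit was tested on simulated data. Python 3.11.15 with scipy 1.17.1 gave the permutation tests.

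The members, the clock and marker lists, the motifs and the rules for naming genes were chosen with earlier results of these data known. By these rules the members, the listed clock genes, the 10 genes nearest to *Arntl* and the 5 nearest to its mirror image could be named. *Itga7* and *Clec4a1*, each first within groups, and the split by exon length were chosen after the values were seen. Nothing states that the mice come from more than 1 batch, and P values measure the spread between these mice. The marker lists whose counts the report does not give had these called genes: alveolar type II cells 1 higher and 0 lower of 6, alveolar type I 0 of 5, club and ciliated 1 higher of 4, smooth muscle 1 lower of 4, neutrophil 0 of 4, skeletal muscle 1 higher and 1 lower of 2, adipocyte 0 of 2 and erythroid 0 of 4. No protein sequence was used here. Some genes that these rules would name are not reported here, and the adjustment of the level tests runs over the 5 remaining pairs.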

Additional observations from a re-analysis of the deposited data

Results flagged for a closer look

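Among 27 groups of values examined in the 4 BLM mice, 1 had a mouse that stood apart, which is about what chance gives (about 1 in 20 groups). It was the total count: BLM 4 had 19002242 counted reads and the other BLM mice 18436336 to 18452895, a gap of 0.971 of the group's range, which is above Dixon's critical value. No level of *Arntl*, *Npas2*, *Clock* or *Rora* in BLM stood apart in this way.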

How the results depend on the processing

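Direction and call of *Arntl* were the same under all 14 alternatives, with log2 fold changes from -1.35 to -0.68. *Clock* and *Npas2* kept their direction under all 14 (-0.36 to -0.11 and -1.09 to -0.29), and *Npas2* was called without BLM+HBO 3 only. *Rora* (-0.22 to 0.03) turned its sign without BLM 1. The number of genes called was 1098 in the whole table, 1940 with no filter on low counts, 1396 by DESeq2 and 659 (without BLM+HBO 1) to 1914 (without BLM+HBO 2) when a mouse was left out, with 706 without BLM 1. At an adjusted P below 0.05 edgeR called 387 genes with no filter, 8 other clock genes among them, 267 when BLM+HBO 2 was left out and 2 when BLM+HBO 3 was. The other clock genes called numbered 8, but 5 without BLM+HBO 1 and up to 11, the value without BLM+HBO 3; the cause was not tested.

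Over all tested genes, the replicate numbers gave no clear pairing of the mice. Same-numbered mice had correlations of -0.008, -0.066 and 0.161 between their deviations from the group means. Mice of different numbers had -0.179 to 0.165. Such a correlation does not show whether single genes follow the numbers. *Npas2* rose and *Rora* fell with the number in both groups. With the replicate block edgeR called 1253 genes and 9 other clock genes, and the members stood at -0.82 (*Arntl*), -0.33 (*Clock*), -0.42 (*Npas2*) and -0.22 (*Rora*).

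With the longest transcript as length, *Rora* minus *Arntl* was -0.083 and *Npas2* minus *Arntl2* 0.028. With a mouse left out, when the smallest exact permutation P is 0.0312, the log2 differences ranged from 0.72 to 0.80 (*Clock* minus *Rora*), 0.33 to 0.79 (*Rora* minus *Arntl*), 0.38 to 0.51 (*Arntl* minus *Npas2*), 0.61 to 0.89 (*Npas2* minus *Arntl2*) and 4.44 to 4.83 (*Arntl2* minus *Rorb*). The 10 nearest genes and the 5 mirror genes were the same genes under RLE factors, upper-quartile factors and a prior count of 0.5. Of 224 values for single other clock genes, 206 kept direction and call, 9 gained and 7 lost the call, and 2 changed sign (*Bhlhe40*, -0.58 to 0.017 with a mouse left out, and *Bhlhe41*, -0.089 to 0.22). *Npas2*, with 55 reads in BLM+HBO 1, is the member that depth limits most.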
